A study of Mus musculus with 13 samples.

Results

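Hearts of mice treated with OMA1 ASO2 were compared with hearts of mice treated with OMA1 ASO1, a pair of antisense oligonucleotides (ASOs) against the same mRNA. The arrays were chosen by their treatment label alone, and 8 of the 13 arrays of the series belonged to the comparison, 3 with OMA1 ASO2 and 5 with OMA1 ASO1. The 5 arrays with CTRL ASO, a nontargeting oligonucleotide, gave a reference level. They also entered the estimate of spread behind the test between the OMA1 ASOs. All mice were OMA1+/- and carried the G58R mutation of C10 (the mitochondrial protein CHCHD10), so every group was already short of one Oma1 allele. The mice were 33 weeks old and had been injected under the skin every week with 50 mg/kg of their ASO. The study reports that some mice given an OMA1 ASO died during the treatment, and its text does not say which ASO they had received. Total RNA of the heart was hybridized to Clariom S Mouse arrays, which read each transcript cluster (the probes of 1 transcribed locus) as a log2 signal. Each array held the RNA of 1 whole heart sample, with its cell types mixed. The ASO sequences were not given in the sources used here.

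OMA1 is a protease of the mitochondrial inner membrane that is activated when this membrane is stressed. Its cleavage of the partner protein DELE1 starts the integrated stress response (ISR), in which the transcription factor ATF4 raises genes of amino acid synthesis, folate metabolism and mitochondrial repair. An ASO of the kind used here pairs with its mRNA inside the cell. Since both ASOs have the same intended target, setting one against the other asks which transcripts differ between hearts beyond that shared target.

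The median log2 signal was 5.24 to 5.34 on all arrays. The background of an array was set at the highest of its 23 groups of background probe sets, which was 5.77 to 6.07, and 9299 to 10069 clusters exceeded it. All 10 ventricular cardiomyocyte markers were above background on every array, with a summed level (log2 of the summed linear signals) of 22.27 to 22.34 with OMA1 ASO2, 22.25 to 22.39 with OMA1 ASO1 and 22.19 to 22.35 with CTRL ASO. OMA1 ASO1 replicate 5 stood apart from its group, with a mean correlation of 0.974 with the other arrays of its treatment, against 0.984 to 0.990 for all other arrays within theirs. The labels give no sex, and the Y-linked genes Kdm5d, Uty and Eif2s3y were all above background on 0 of 3 OMA1 ASO2 arrays, 2 of 5 OMA1 ASO1 arrays and 2 of 5 CTRL ASO arrays.

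Oma1 itself lay below background with both ASOs. Its log2 signal was 4.65, 3.74 and 5.31 with OMA1 ASO2 and 5.48, 4.83, 4.44, 5.28 and 4.91 with OMA1 ASO1, against 9.13 to 9.83 on the CTRL ASO arrays. The arrays of the ASOs overlapped, and since both means were below background no fold is given between them (limma adjusted p = 0.798). Chchd10, the gene mutated in these mice, had 14.63, 13.91 and 15.96 with OMA1 ASO2 and 14.67 to 15.22 with OMA1 ASO1, against 15.47 to 16.48 with CTRL ASO. Its difference between the ASOs was −0.17 (95% confidence interval −0.90 to 0.56, limma adjusted p = 0.944).

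Few clusters separated the ASOs. Of 22206 clusters tested with limma and Benjamini-Hochberg adjustment, 23 passed an adjusted p of 0.01, which is 0.104% of all clusters. Of these, 8 were lower with OMA1 ASO2 (0.036%) and 15 were higher (0.0675%). At an adjusted p of 0.05 the count was 51 (0.23%), with 14 lower (0.063%) and 37 higher (0.167%), and at an unadjusted p of 0.05 it was 820 lower (3.69%) and 908 higher (4.09%). The median difference was −2.05 among the 8 lower clusters and 1.78 among the 15 higher ones, and the sizes ran between 1.15 and 3.94 on the log2 scale. In none of the 23 did the OMA1 ASO2 arrays overlap the OMA1 ASO1 arrays. The 23 were picked by this same difference, so the lack of overlap follows largely from the choice. Over all clusters, the OMA1 ASO2 arrays lay entirely below the OMA1 ASO1 arrays in 2.31% and entirely above them in 2.53%. In a heart, fewer cells of a type and less RNA per cell cannot be told apart by these signals.

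**Figure D1:**
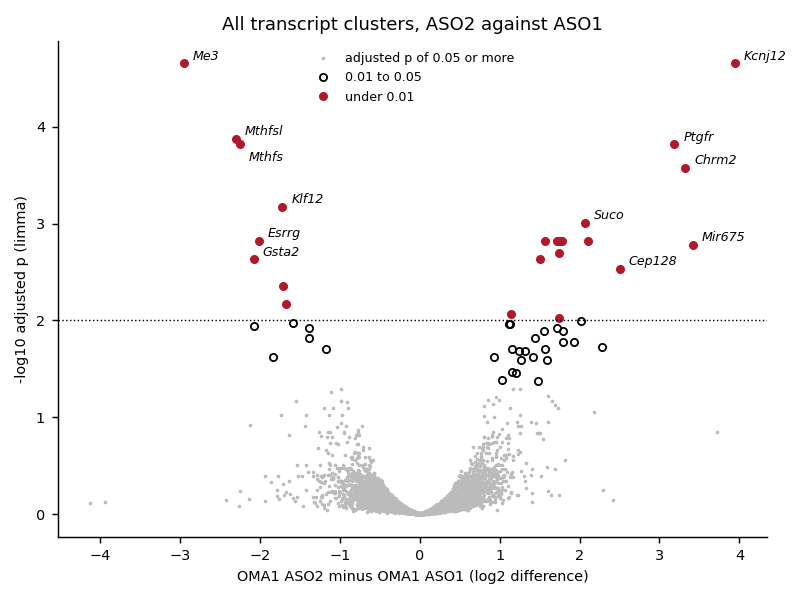
All 22206 transcript clusters, with the log2 difference (OMA1 ASO2 minus OMA1 ASO1) on the x axis and −log10 of the limma adjusted p on the y axis; the dotted line marks an adjusted p of 0.01. The 23 clusters past it are filled in red, with Me3 at −2.95 and Kcnj12 at 3.94 standing farthest out, and the open circles are those between 0.01 and 0.05.

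The number of calls rested on the 3 OMA1 ASO2 arrays. Of the 23 clusters, 14 remained past 0.01 without OMA1 ASO2 replicate 1, 8 without replicate 2 and 12 without replicate 3. Without OMA1 ASO1 replicate 5 all 23 remained and the count was 38. The 7 clusters that remained past 0.01 whichever of the 13 arrays was left out were Me3, Kcnj12, Mthfsl, Mthfs, Ptgfr, Chrm2 and Klf12. A further 13 stayed under 0.05 in each of these fits, and 3 did not. These 3 were Acsf2 (adjusted p = 0.0775 by limma without OMA1 ASO2 replicate 2), Phactr2 (0.052 without OMA1 ASO2 replicate 3) and Gyg (0.0813 without OMA1 ASO2 replicate 3). Their calls at 0.01 were lost in 9, 12 and 10 of the 13 fits, whichever treatment the array left out came from. In a t test with each cluster's own spread, 5 of the 23 clusters remained past 0.01. Ptgfr (adjusted p = 0.0172) and Chrm2 (0.0192) were not among these 5. In that test Gsta2 and Arhgap26 (both 0.0533), Mir675 and Acsf2 (both 0.0658), Cep128 (0.075) and Gyg (0.0845) did not pass 0.05.

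Of the clusters lower with OMA1 ASO2 at 0.01, Me3 had the largest difference. It encodes the mitochondrial malic enzyme, which turns malate into pyruvate and makes NADPH, the reducing agent of antioxidant defence. Its cluster (TC0700001269.mm.2) had a log2 signal of 8.74, 7.47 and 8.16 with OMA1 ASO2. It had 11.12, 11.18, 11.07, 11.28 and 10.72 with OMA1 ASO1, and 10.74, 10.83, 10.72, 11.04 and 11.01 with CTRL ASO. The 3 OMA1 ASO2 arrays were thus apart from all other arrays, while those of OMA1 ASO1 and CTRL ASO overlapped. Me3 was 7.71-fold lower with OMA1 ASO2 (log2 difference −2.95, standard error 0.24, limma adjusted p = 2.2e-05).

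Mthfs, methenyltetrahydrofolate synthetase, returns folinic acid to the pool of folates that carry one-carbon units, and Mthfsl is its close copy on the same chromosome. Mthfs had 5.39, 4.82 and 5.25 with OMA1 ASO2, against 7.14, 6.98, 7.74, 7.35 and 7.79 with OMA1 ASO1 and 7.08 to 7.71 with CTRL ASO. Mthfsl had 4.94, 4.41 and 4.57 with OMA1 ASO2, against 6.28, 7.02, 7.06, 6.93 and 7.44 with OMA1 ASO1 and 6.91 to 7.19 with CTRL ASO. All 3 OMA1 ASO2 arrays were below background for both clusters, and all 10 others were above it. The folds are therefore bounds against the background: Mthfs was at least 2.72-fold lower with OMA1 ASO2 and Mthfsl at least 1.99-fold lower, with limma adjusted p of 1.51e-04 and 1.33e-04. The windows around the starts of both genes are printed to show how alike the loci are. They come from RefSeq on GRCm38.p6, Mthfs at chr9:89210940-89211239 on the plus strand and Mthfsl at chr9:88719749-88720048 on the minus strand, and run from 250 bases before to 50 bases after the start. The capitals mark the longest run that both windows share.
Mthfs: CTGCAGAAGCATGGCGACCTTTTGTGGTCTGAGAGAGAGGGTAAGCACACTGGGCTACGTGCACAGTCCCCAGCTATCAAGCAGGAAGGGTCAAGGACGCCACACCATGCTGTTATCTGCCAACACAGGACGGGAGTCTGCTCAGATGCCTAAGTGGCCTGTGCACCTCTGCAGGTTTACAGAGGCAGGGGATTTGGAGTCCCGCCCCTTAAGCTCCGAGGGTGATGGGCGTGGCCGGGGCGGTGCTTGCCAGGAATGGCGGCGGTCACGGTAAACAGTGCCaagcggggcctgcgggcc
Mthfsl: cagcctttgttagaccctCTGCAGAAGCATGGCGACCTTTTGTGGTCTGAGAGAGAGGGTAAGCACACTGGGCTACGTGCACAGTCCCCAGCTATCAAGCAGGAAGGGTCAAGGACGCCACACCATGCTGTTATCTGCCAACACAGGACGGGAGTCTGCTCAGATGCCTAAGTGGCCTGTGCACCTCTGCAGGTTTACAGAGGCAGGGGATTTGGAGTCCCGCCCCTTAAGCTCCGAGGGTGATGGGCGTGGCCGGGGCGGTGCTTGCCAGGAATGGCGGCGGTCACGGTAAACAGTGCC
The shared run was 282 of 300 bases long. Signals of such near-identical copies may come from either gene, so the pair counts as 1 observation with an uncertain source.

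Esrrg, a nuclear receptor that drives genes of oxidative metabolism in the heart, had 7.22, 7.30 and 6.80 with OMA1 ASO2, against 9.37, 8.97, 8.98, 8.51 and 9.76 with OMA1 ASO1 and 8.73 to 9.47 with CTRL ASO. Its difference was −2.01 (standard error 0.26, limma adjusted p = 0.0015), and without OMA1 ASO2 replicate 3 the adjusted p was 0.0171. Klf12, a zinc finger repressor of transcription, had 7.28, 7.50 and 6.97 with OMA1 ASO2, against 8.76 to 9.31 with OMA1 ASO1 and 8.37 to 9.01 with CTRL ASO. For both transcription factors the OMA1 ASO2 arrays were the lowest of the 13 and those of OMA1 ASO1 overlapped CTRL ASO. The difference of Klf12 was −1.72 (standard error 0.20, limma adjusted p = 6.7e-04).

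Gsta2, a glutathione transferase that detoxifies electrophiles, had 8.16, 8.61 and 7.69 with OMA1 ASO2, against 9.51 to 10.53 with OMA1 ASO1 and 10.56 to 11.65 with CTRL ASO. It was the 1 cluster of the 23 in which the arrays of both ASOs lay on the same side of CTRL ASO without touching it, as they did in 1.9% of all clusters. The difference between the ASOs was −2.08 (standard error 0.29, limma adjusted p = 0.00232). Acsf2, a mitochondrial acyl-CoA synthetase, had 6.73, 6.39 and 7.32 with OMA1 ASO2, against 8.05 to 8.99 with OMA1 ASO1 and 7.12 to 7.94 with CTRL ASO (difference −1.67, limma adjusted p = 0.00683). Here it was the OMA1 ASO1 arrays that stood apart from CTRL ASO, on the higher side. Arhgap26 had 9.27 to 9.41 with OMA1 ASO2, against 10.71 to 11.68 with OMA1 ASO1 and 10.19 to 11.08 with CTRL ASO (difference −1.70, limma adjusted p = 0.00438).

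**Figure D2:**
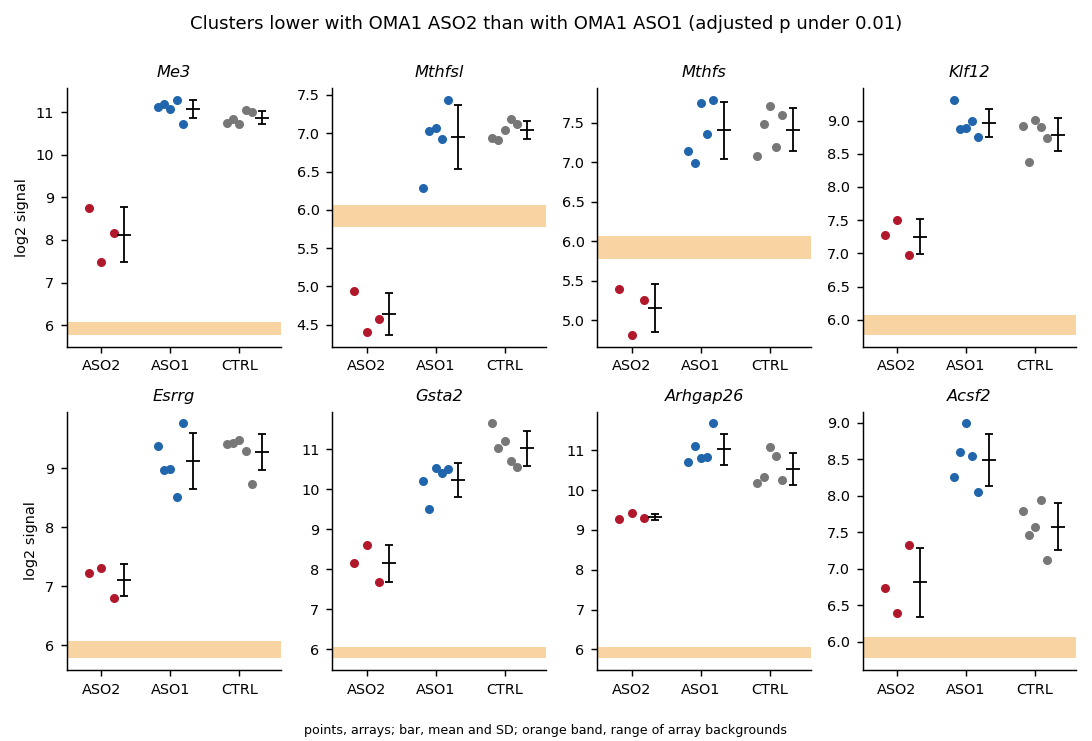
Log2 signals on each array (points) of the 8 clusters lower with OMA1 ASO2 at an adjusted p under 0.01, with OMA1 ASO2 at the left, then OMA1 ASO1 and CTRL ASO; bars are mean and SD, and the orange band spans the background levels of the arrays. The y axes differ and do not start at 0; the 3 OMA1 ASO2 points of Mthfs and Mthfsl are below the band, and Me3 has a mean of 8.13 with OMA1 ASO2.

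Of the clusters higher with OMA1 ASO2 at 0.01, Kcnj12 had the largest difference. It encodes an inward rectifier potassium channel, one of those that hold the resting potential of heart muscle cells. Its cluster (TC1100000773.mm.2) had 11.58, 10.27 and 11.07 with OMA1 ASO2. It had 7.50, 7.67, 6.45, 6.18 and 7.35 with OMA1 ASO1, and 8.50, 8.71, 8.60, 8.90 and 8.59 with CTRL ASO. Kcnj12 was 15.4-fold higher with OMA1 ASO2 than with OMA1 ASO1 (log2 difference 3.94, standard error 0.33, limma adjusted p = 2.2e-05), and CTRL ASO lay between them without overlap on either side.

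Ptgfr, the receptor of prostaglandin F, which couples to calcium release, showed the same order of treatments. It had 9.09, 9.59 and 10.12 with OMA1 ASO2, against 6.17, 7.37, 6.05, 5.99 and 6.49 with OMA1 ASO1 and 8.08 to 9.06 with CTRL ASO. Of the OMA1 ASO1 arrays, 1 of 5 was below background. The difference was 3.19 (standard error 0.33, limma adjusted p = 1.51e-04), or 9.10-fold. Suco, a protein of the endoplasmic reticulum needed for bone formation, had 10.07, 10.72 and 10.13 with OMA1 ASO2, against 7.73 to 8.80 with OMA1 ASO1 and 9.63 to 10.01 with CTRL ASO (difference 2.07, standard error 0.25, limma adjusted p = 9.8e-04, and 0.012 without OMA1 ASO2 replicate 2). Kcnj12, Ptgfr and Suco were the 3 clusters of the 23 in which the ASOs lay on opposite sides of CTRL ASO, as in 0.0225% of all clusters. Both ASOs are set against the same CTRL ASO arrays here, so the sides are a description and were not tested.

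In other clusters the OMA1 ASO2 arrays overlapped CTRL ASO and those of OMA1 ASO1 were the low ones. Chrm2, the muscarinic receptor through which the vagus nerve slows the heart, had 9.22, 9.89 and 9.51 with OMA1 ASO2. It had 6.74, 6.99, 5.94, 5.23 and 6.18 with OMA1 ASO1, where 3 of 5 arrays were above background, and 8.73, 8.84, 9.47, 10.09 and 9.25 with CTRL ASO. Chrm2 was thus higher with OMA1 ASO2 than with OMA1 ASO1 by a log2 difference of 3.33 (standard error 0.36, limma adjusted p = 2.65e-04). Gcnt1, which builds branches of O-linked glycans, had 7.94, 8.03 and 7.58 with OMA1 ASO2, against 5.92 to 6.46 with OMA1 ASO1 and 8.01 to 8.85 with CTRL ASO (difference 1.71, limma adjusted p = 0.0015). Scaf8, which binds RNA polymerase at the ends of genes, and Gyg, the glycogenin on which glycogen chains are started, followed this pattern with differences of 1.51 (limma adjusted p = 0.00232) and 1.74 (0.00952). Scaf8 had 8.91 to 9.50 with OMA1 ASO2, against 7.36 to 8.08 with OMA1 ASO1 and 9.49 to 9.61 with CTRL ASO. Gyg had 11.40, 12.06 and 12.58 with OMA1 ASO2, against 9.78 to 10.64 with OMA1 ASO1 and 11.06 to 12.03 with CTRL ASO.

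The cluster annotated Mir675 (TC0700004569.mm.2) also followed it. In RefSeq this microRNA gene lies within H19, an imprinted noncoding RNA, and the array reads the transcript of the cluster rather than the mature microRNA. The cluster had 9.34, 8.16 and 8.47 with OMA1 ASO2. It had 5.92, 5.91, 4.69, 3.99 and 5.68 with OMA1 ASO1, all 5 below background, and 8.06, 7.21, 6.83, 7.47 and 8.63 with CTRL ASO. Against the background it was at least 6.21-fold higher with OMA1 ASO2 (limma adjusted p = 0.00164, and 0.0179 without OMA1 ASO2 replicate 1). The mature microRNAs of the gene are printed from RefSeq (GRCm38.p6, chromosome 7, minus strand) to identify the locus, with the seed (bases 2 to 8) in capitals.
mmu-miR-675-5p: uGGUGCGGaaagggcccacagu
mmu-miR-675-3p: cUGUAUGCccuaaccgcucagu
The arms have different seeds. Igf2, the fetal growth factor gene that neighbours H19, passed only the wider threshold and was chosen after its values were seen. It had 10.28 to 11.53 with OMA1 ASO2, against 8.99 to 9.95 with OMA1 ASO1 and 9.72 to 10.76 with CTRL ASO (difference 1.49, limma adjusted p = 0.0418).

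The remaining higher clusters past 0.01 had OMA1 ASO2 arrays above both other treatments, while OMA1 ASO1 overlapped CTRL ASO. Cep128, a centriole protein, had 12.65, 13.02 and 13.38 with OMA1 ASO2, against 9.78 to 10.92 with OMA1 ASO1 and 8.39 to 10.25 with CTRL ASO. Its difference was 2.50 (standard error 0.36, limma adjusted p = 0.0029), and without OMA1 ASO2 replicate 3 the adjusted p was 0.0369. Pla2g5, a secreted phospholipase that releases fatty acids from membranes, had 8.78, 8.79 and 9.34 with OMA1 ASO2, against 6.72 to 7.88 with OMA1 ASO1 and 6.52 to 6.80 with CTRL ASO (difference 1.78, limma adjusted p = 0.0015). In folds, Cep128 was 5.67-fold and Pla2g5 3.45-fold higher. Pgap1, which trims the lipid anchor of surface proteins, had 8.63 to 9.28 with OMA1 ASO2, against 6.50 to 7.58 with OMA1 ASO1 and 6.85 to 7.30 with CTRL ASO (difference 1.74, limma adjusted p = 0.00198). Phactr2, a regulator of actin and a phosphatase, had 12.45 to 12.54 with OMA1 ASO2, against 11.02 to 11.51 with OMA1 ASO1 and 11.22 to 11.61 with CTRL ASO (difference 1.15, limma adjusted p = 0.00856).

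Pirt and Ano3, membrane proteins best known from sensory neurons and brain, were above background on all 3 OMA1 ASO2 arrays and on no other array. Pirt had 6.87, 7.05 and 6.98 with OMA1 ASO2, against 4.76 to 5.62 with OMA1 ASO1 and 5.10 to 5.51 with CTRL ASO. Ano3 had 6.08, 6.63 and 7.18 with OMA1 ASO2, against 3.92 to 4.81 with OMA1 ASO1 and 4.41 to 5.34 with CTRL ASO. As bounds, Pirt was at least 1.92-fold and Ano3 at least 1.52-fold higher with OMA1 ASO2 than with OMA1 ASO1 (limma adjusted p = 0.0015 for both). The 5 measured markers of Schwann cells and neurons were all dim, with none called and a summed level of 6.35 to 6.49 with OMA1 ASO2, 6.09 to 6.36 with OMA1 ASO1 and 6.04 to 6.38 with CTRL ASO. Their part in Pirt and Ano3 was not tested. Abca4, a lipid transporter, also passed 0.01, but its means with both ASOs were below background and no difference is given for it.

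**Figure D3:**
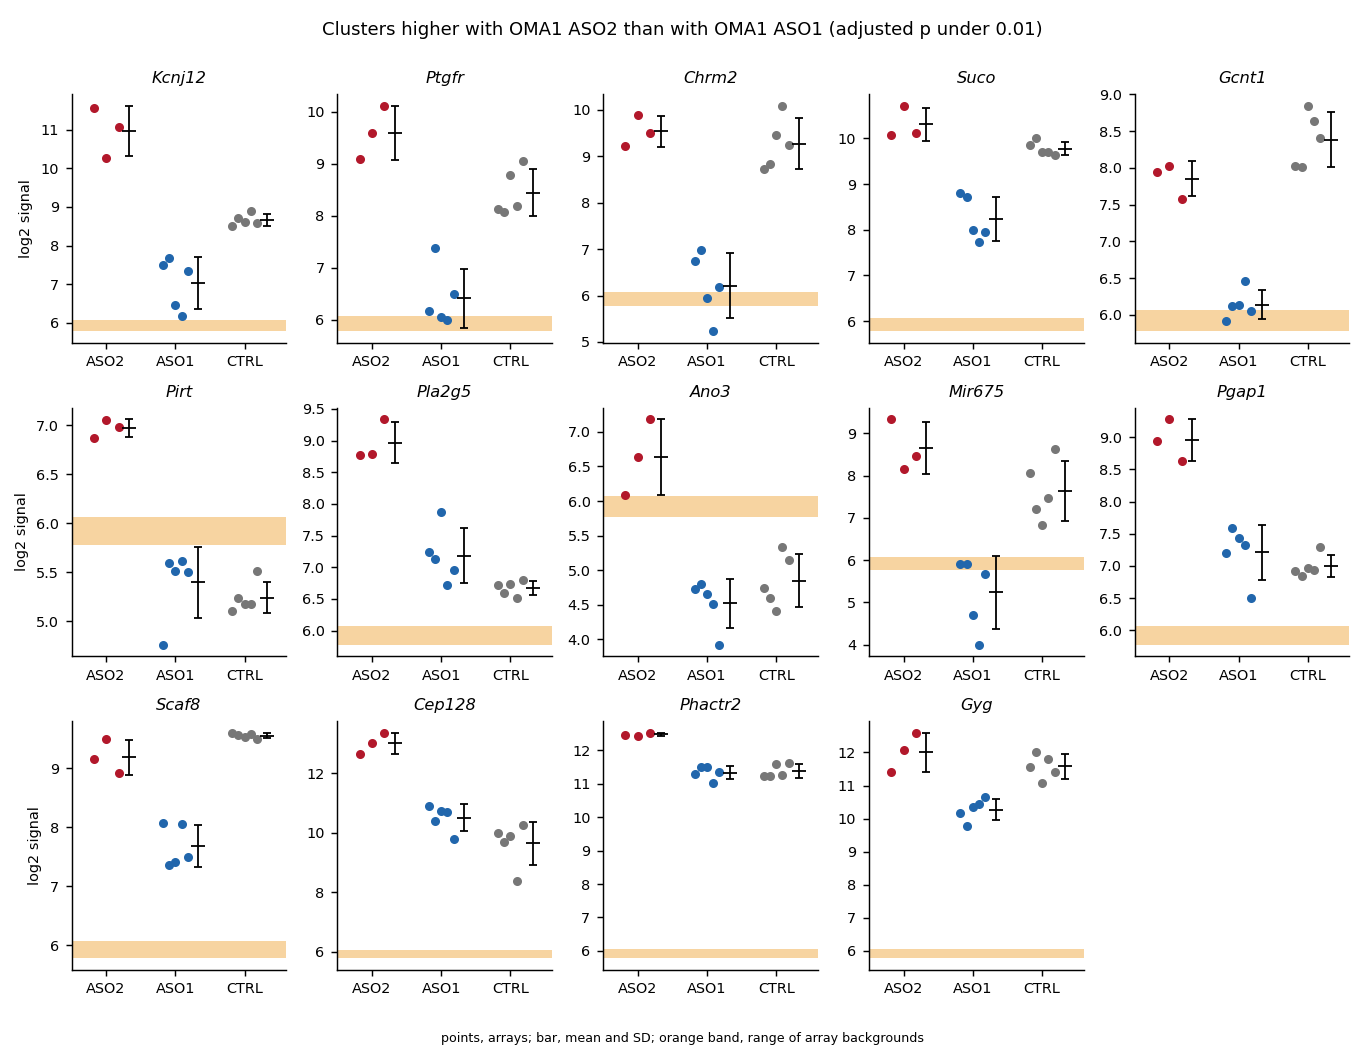
Log2 signals on each array (points) of 14 of the 15 clusters higher with OMA1 ASO2 at an adjusted p under 0.01 (Abca4, below background with both ASOs, is left out), with OMA1 ASO2 at the left, then OMA1 ASO1 and CTRL ASO; bars are mean and SD, and the orange band spans the background levels of the arrays. The y axes differ and do not start at 0; in Kcnj12, Ptgfr and Suco CTRL ASO lies between the ASOs, and in Chrm2, Gcnt1, Mir675, Scaf8 and Gyg the OMA1 ASO2 and CTRL ASO points overlap.

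Set against the reference arrays, the 23 clusters fell into 4 patterns. In 13 the OMA1 ASO2 arrays were apart from CTRL ASO while OMA1 ASO1 overlapped it (7.14% of all clusters did so), in 6 it was OMA1 ASO1 that was apart (1.94%), in 3 the ASOs were on opposite sides and in 1 on the same side. The OMA1 ASO2 group has 3 arrays and the OMA1 ASO1 group 5, and the smaller group is the more easily free of overlap, so the first pair of shares is not comparable between the ASOs. In none of the 23 did both ASOs overlap CTRL ASO, whereas in 89% of all clusters both did. Since the 23 were picked for a gap between the ASOs on these arrays, this contrast follows largely from the choice.

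Channel and receptor genes were then taken as whole lists. These lists hold Kcnj12, Chrm2 and Ptgfr and were chosen with earlier results of these data known. The shares set beside them are therefore a description and no test. Of 22 measured potassium channel genes, 3 were higher with OMA1 ASO2 at an adjusted p of 0.05 and 0 lower, against 0.167% and 0.063% of all clusters. Besides Kcnj12 these were Kcnj3 and Kcnj5, the subunits of the cardiac channel that acetylcholine opens through Chrm2. The median difference of the list was 0.20, against −0.01 over all clusters. At an unadjusted p of 0.05, 7 of the list were higher and 2 lower (4.09% and 3.69% of all clusters). Kcnj3 had 12.66, 13.44 and 13.45 with OMA1 ASO2, against 11.62 to 11.85 with OMA1 ASO1 and 10.11 to 11.15 with CTRL ASO (difference 1.45, limma adjusted p = 0.0153). Kcnj5 had 12.57, 12.23 and 12.28 with OMA1 ASO2, against 11.00 to 11.61 with OMA1 ASO1 and 11.13 to 11.90 with CTRL ASO (difference 1.16, limma adjusted p = 0.0196). Neither call held without each array: the adjusted p of Kcnj3 was 0.141 without OMA1 ASO2 replicate 2, and that of Kcnj5 was 0.136 without OMA1 ASO2 replicate 1, with 2 and 6 of the 13 such fits losing the call. With the mean of the Y-linked genes as a covariate, the adjusted p was 0.0531 for Kcnj3 and 0.071 for Kcnj5.

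Kcnj3 is also a marker of atrial muscle, which has more of this channel than the ventricle. Of 11 measured atrial markers, 9 were above background on at least 3 of the arrays of both ASOs together. Kcnj3 was the 1 called, on the higher side, with 0 lower, against 0.167% and 0.063% of all clusters. A difference above 0 was seen in 10, and 3 were higher and 0 lower at an unadjusted p of 0.05 (4.09% and 3.69% of all clusters). The median difference was 0.34. The largest difference was that of Bmp10, a growth factor of atrial muscle, at 9.86, 12.32 and 10.03 with OMA1 ASO2, against 6.61 to 10.45 with OMA1 ASO1 and 10.22 to 14.56 with CTRL ASO. It overlapped between the ASOs and did not pass (difference 2.30, limma adjusted p = 0.57). Their summed level overlapped between treatments, at 16.87 to 18.59 with OMA1 ASO2, 16.47 to 18.84 with OMA1 ASO1 and 14.17 to 18.76 with CTRL ASO. Myl7, a light chain of atrial myosin, was below background on all 8 arrays of both ASOs, and Sln, which slows the calcium pump of atrial muscle, was above it on 0 of 3 OMA1 ASO2 arrays and 3 of 5 OMA1 ASO1 arrays. The part of atrial tissue in the channel values was not tested.

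Among 23 measured G protein-coupled receptors and their regulators, 3 were higher with OMA1 ASO2 at 0.05 and 0 lower, against 0.167% and 0.063% of all clusters, with a list median of −0.05. The 3 were Chrm2, Ptgfr and Rgs6, a regulator that ends the signal of Chrm2 in pacemaker and atrial cells. At an unadjusted p of 0.05 the list was mixed, with 4 higher and 3 lower (4.09% and 3.69% of all clusters). Rgs6 had 9.87, 9.53 and 9.10 with OMA1 ASO2, against 8.39, 8.47, 7.37, 7.36 and 6.92 with OMA1 ASO1 and 8.79 to 9.24 with CTRL ASO. The OMA1 ASO2 arrays thus overlapped CTRL ASO, as for Chrm2 (difference 1.80, limma adjusted p = 0.0166, and 0.126 without OMA1 ASO2 replicate 1).

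Of 23 measured genes of sodium and calcium handling, 1 was lower with OMA1 ASO2 at 0.05 and 0 higher (0.063% and 0.167% of all clusters). This was Slc8a1, the sodium-calcium exchanger that removes calcium after each beat. It had 13.05, 11.52 and 10.99 with OMA1 ASO2, against 13.45 to 14.19 with OMA1 ASO1 and 14.09 to 14.72 with CTRL ASO. The OMA1 ASO2 arrays varied by more than the other groups, and all 3 were below every other array (difference −2.07, standard error 0.34, limma adjusted p = 0.0113, and 0.109 without OMA1 ASO2 replicate 2). Kcnip2, a subunit of the transient outward potassium channel, averaged 13.14 with OMA1 ASO2, 14.24 with OMA1 ASO1 and 13.48 with CTRL ASO and did not pass (difference −1.10, limma adjusted p = 0.159). Rgs2, another brake on receptor signals, averaged 10.46 with OMA1 ASO2, 8.98 with OMA1 ASO1 and 8.60 with CTRL ASO and did not pass (difference 1.48, limma adjusted p = 0.144).

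**Figure D4:**
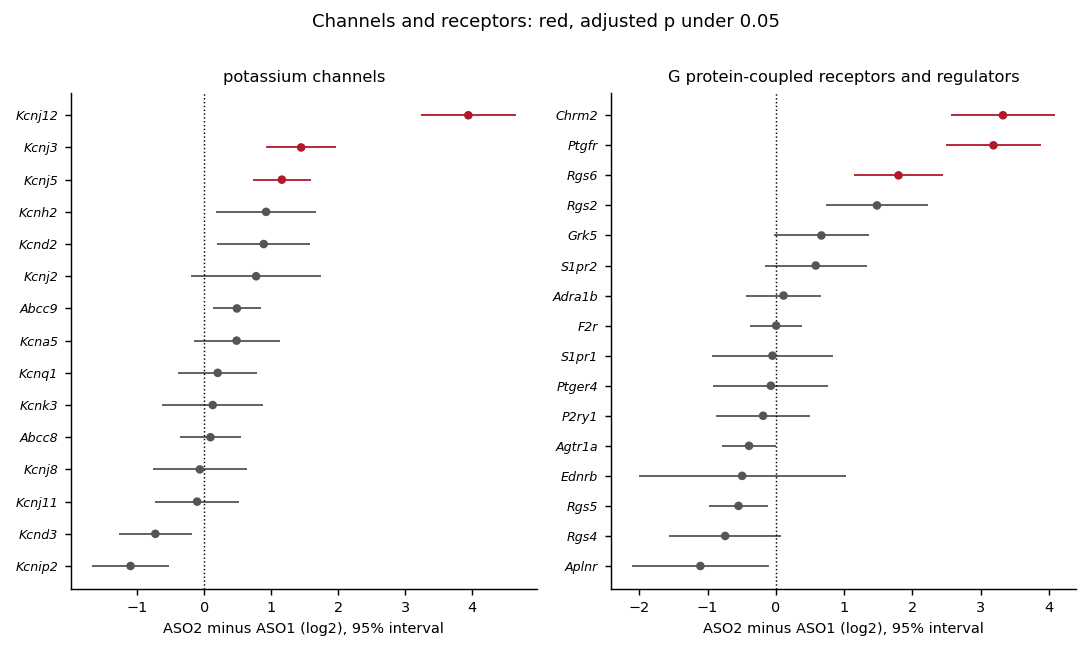
Log2 differences (OMA1 ASO2 minus OMA1 ASO1, x axis) with 95% confidence intervals for the potassium channel and G protein-coupled receptor genes whose mean was above background with at least 1 ASO; red points passed a limma adjusted p of 0.05. Kcnj12, Chrm2 and Ptgfr stand at 3.94, 3.33 and 3.19, apart from the other members of their lists.

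The metabolic lists held no calls beyond those named above. Of 23 measured genes of folate and one-carbon metabolism, the near-identical pair Mthfs and Mthfsl, counted above as 1 observation, was lower with OMA1 ASO2 at 0.05 and 0 were higher (0.063% and 0.167% of all clusters), and the median difference was −0.09. Of 31 measured genes of malic enzymes, pyruvate use and the tricarboxylic acid cycle, Me3 was lower and 0 higher (median −0.16). At an unadjusted p of 0.05, 5 of this list were lower and 0 higher (3.69% and 4.09% of all clusters). Me1, the cytosolic malic enzyme, had means of 13.20 with OMA1 ASO2, 13.79 with OMA1 ASO1 and 14.16 with CTRL ASO and did not pass (difference −0.59, limma adjusted p = 0.42). Of 23 genes of NADPH supply and glutathione, which also hold Me3, 1 was lower, 0 were higher and the median was −0.23. Here 6 were lower and 0 higher at an unadjusted p of 0.05 (3.69% and 4.09% of all clusters). Nqo1, a quinone reductase of the antioxidant response, had means of 10.98 with OMA1 ASO2, 12.11 with OMA1 ASO1 and 11.24 with CTRL ASO (difference −1.13, limma adjusted p = 0.186). Of 24 genes of fatty acid uptake and oxidation, none passed at 0.05 in either direction by limma, and at an unadjusted p of 0.05 there were 6 lower and 0 higher, against 3.69% and 4.09% of all clusters (median −0.33). The largest of these was Acaa2, the last enzyme of mitochondrial beta oxidation (difference −0.67, limma adjusted p = 0.359).

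No gene of the ISR passed the test between the ASOs. None of 8 ISR transcription factors and none of 30 measured ATF4 targets passed an adjusted p of 0.05 by limma, with medians of −0.12 and −0.05. At an unadjusted p of 0.05, 1 and 3 were lower and 0 higher, against 3.69% and 4.09% of all clusters. Atf4 itself had 10.92, 10.53 and 11.29 with OMA1 ASO2 and 11.17, 10.90, 10.64, 11.15 and 12.70 with OMA1 ASO1, against 13.60 to 14.59 with CTRL ASO. The ASOs overlapped and the difference was −0.40 (95% confidence interval −1.18 to 0.38, limma adjusted p = 0.853). The interval for Ddit3 (CHOP) ran from −0.68 to 0.23, that for Lonp1, the protease of the mitochondrial matrix, from −0.44 to 0.45, and that for Aldh18a1, an enzyme of proline synthesis, from −0.38 to 0.51. These intervals leave room for differences of up to about the sizes given, so the missing calls do not show that the ASOs act alike.

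Mthfd2, Atf5 and Asns had intervals that lay wholly or almost wholly below 0. Mthfd2, the mitochondrial folate enzyme, had 9.14, 9.54 and 9.56 with OMA1 ASO2, against 9.77, 9.55, 11.20, 12.38 and 10.45 with OMA1 ASO1 and 15.43 to 15.71 with CTRL ASO. The difference was −1.25 (95% confidence interval −2.20 to −0.31, limma adjusted p = 0.456), and the OMA1 ASO1 arrays spread over more of the scale than those of the other treatments. Atf5 had 6.62, 6.49 and 6.53 with OMA1 ASO2, against 7.10, 7.08, 8.17, 7.94 and 6.87 with OMA1 ASO1 and 10.11 to 11.70 with CTRL ASO. Its OMA1 ASO2 arrays were all below those of OMA1 ASO1, and the difference was −0.88 (95% confidence interval −1.59 to −0.18, limma adjusted p = 0.503). Asns, asparagine synthetase, had 9.79, 10.68 and 10.09 with OMA1 ASO2, against 10.20 to 11.58 with OMA1 ASO1 and 14.36 to 15.05 with CTRL ASO (difference −0.65, 95% confidence interval −1.31 to 0.01, limma adjusted p = 0.644).

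Interferon genes differed in 1 call. Irf7, the transcription factor that amplifies the type I interferon response, had 5.69, 6.09 and 5.77 with OMA1 ASO2, with 1 of 3 arrays above background. It had 7.97, 8.37, 7.52, 7.94 and 6.66 with OMA1 ASO1, with all 5 above background, and 3.85 to 5.03 with CTRL ASO, with 0 of 5 above it. The treatments thus stood in order without overlap, OMA1 ASO1 highest and CTRL ASO lowest (difference −1.84, standard error 0.34, limma adjusted p = 0.0236, 0.137 without OMA1 ASO2 replicate 1 and 0.0685 with the Y-linked covariate). All CTRL ASO arrays and most OMA1 ASO2 arrays were below background, so the order of these treatments rests on dim signals. The call was lost in 7 of the 13 fits that leave out 1 array, 3 of them without an OMA1 ASO2 array and 4 without an OMA1 ASO1 array. Of 19 measured interferon genes Irf7 was the 1 called, against 0.063% of all clusters lower. At an unadjusted p of 0.05, 9 were lower and 0 higher, against 3.69% and 4.09% of all clusters. The median was −0.61, against −0.01 over all clusters. Ifit3, an interferon-induced antiviral gene, averaged 9.13 with OMA1 ASO2, 10.33 with OMA1 ASO1 and 8.18 with CTRL ASO and did not pass (difference −1.20, limma adjusted p = 0.408). Rsad2, another antiviral gene, averaged 5.62 with OMA1 ASO2, where 0 of 3 arrays were above background, 6.95 with OMA1 ASO1, where 4 of 5 were, and 5.91 with CTRL ASO, and did not pass (limma adjusted p = 0.406). The summed level of the list was 10.83 to 11.21 with OMA1 ASO2, 10.97 to 12.41 with OMA1 ASO1 and 10.29 to 11.25 with CTRL ASO.

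**Figure D5:**
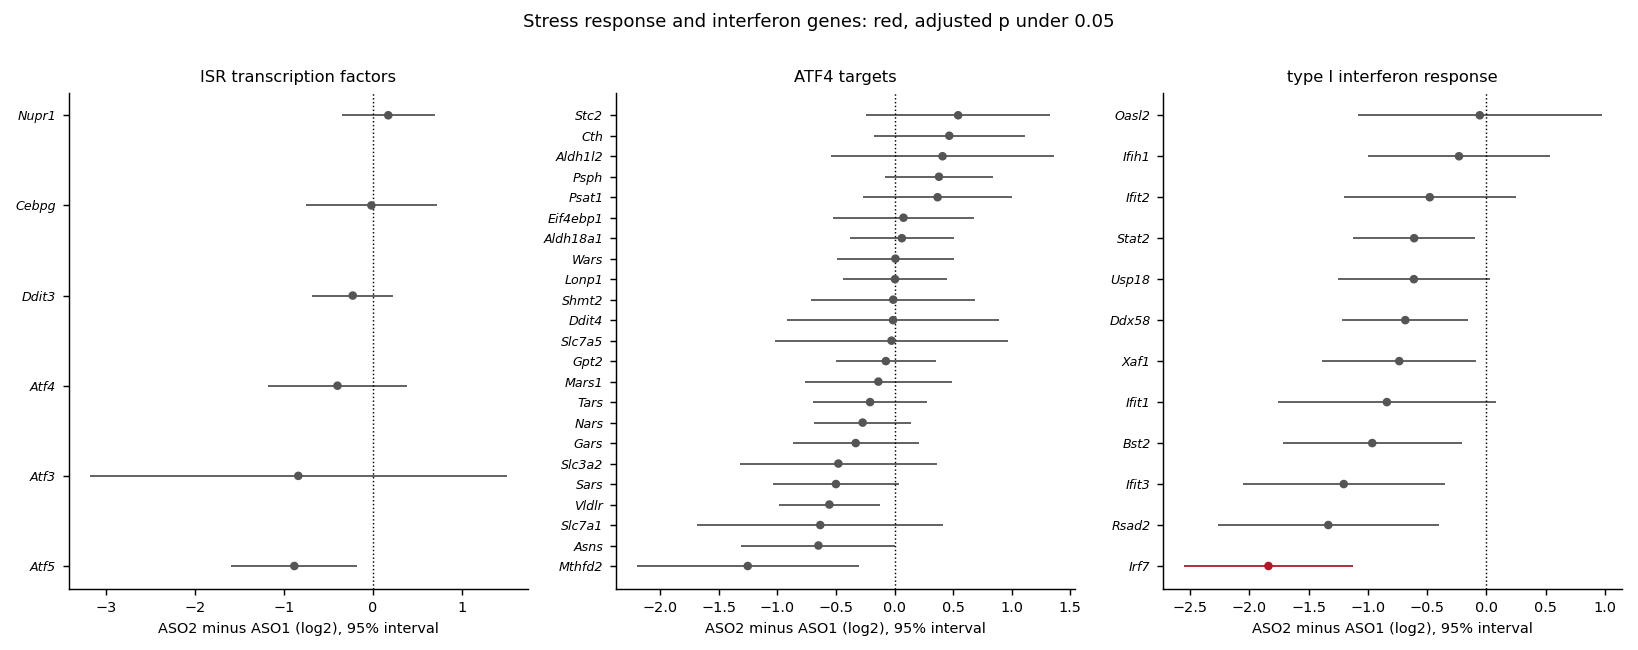
Log2 differences (OMA1 ASO2 minus OMA1 ASO1, x axis) with 95% confidence intervals for the ISR transcription factors, ATF4 targets and type I interferon genes whose mean was above background with at least 1 ASO; the red point passed a limma adjusted p of 0.05. Irf7 at −1.84 is the 1 called gene of the 3 lists, and Mthfd2 at −1.25 is the lowest of the ATF4 targets.

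Further genes passed only between 0.01 and 0.05. On the higher side, Tbl1xr1, which exchanges corepressors on nuclear receptors, had 11.58, 10.86 and 10.82 with OMA1 ASO2, against 8.17 to 9.64 with OMA1 ASO1 and 11.13 to 11.79 with CTRL ASO (difference 2.02, limma adjusted p = 0.0101). Etv1, a transcription factor of the ETS family, had 8.15 to 8.47 with OMA1 ASO2, against 5.84 to 7.48 with OMA1 ASO1, where 3 of 5 arrays were above background, and 6.70 to 7.10 with CTRL ASO (difference 1.80, limma adjusted p = 0.0129). Nt5e, the surface enzyme that makes adenosine, had 7.26 to 7.64 with OMA1 ASO2, against 5.26 to 6.44 with OMA1 ASO1, where 2 of 5 arrays were above background, and 6.50 to 7.98 with CTRL ASO (fitted difference 1.59, limma adjusted p = 0.0258). Tbl1xr1 and Nt5e thus overlapped CTRL ASO with OMA1 ASO2, and Etv1 was above it. Bambi, a decoy receptor for transforming growth factor beta, and Spink4, a protease inhibitor, differed by 1.93 (limma adjusted p = 0.0166) and 1.71 (0.0119). Spink4 stayed under 0.05 whichever array was left out, but not with each cluster's own spread (0.0997), in a fit of the OMA1 ASO arrays alone (0.0993) or on only the arrays with Y-linked genes below background (0.0606). Plagl1, a zinc finger factor, had 6.06, 5.13 and 6.94 with OMA1 ASO2, where 2 of 3 arrays were above background, and 3.05 to 4.80 with OMA1 ASO1, all 5 below it (at least 1.01-fold higher, limma adjusted p = 0.019), against 2.89 to 3.95 with CTRL ASO. Without OMA1 ASO2 replicate 3 its adjusted p was 0.145, and the call was lost in 4 of the 13 fits that leave out 1 array. The adjusted p of Tbl1xr1 was 0.0845 without OMA1 ASO2 replicate 1, that of Etv1 was 0.102 and that of Nt5e 0.164 without OMA1 ASO2 replicate 2, and that of Bambi 0.129 without OMA1 ASO2 replicate 3 and 0.0535 with the Y-linked covariate.

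On the lower side, Nf1, neurofibromin, which switches off Ras, had 9.71, 9.35 and 8.58 with OMA1 ASO2, against 10.47 to 10.88 with OMA1 ASO1 and 10.32 to 10.94 with CTRL ASO (difference −1.38, limma adjusted p = 0.0153). Pex3, needed to build the membrane of peroxisomes, had 11.31, 11.41 and 10.53 with OMA1 ASO2, against 12.20 to 12.33 with OMA1 ASO1 and 11.88 to 12.48 with CTRL ASO (difference −1.18, limma adjusted p = 0.0196). In both, all 3 OMA1 ASO2 arrays were the lowest of the 13, and without OMA1 ASO2 replicate 3 the adjusted p was 0.105 for Nf1 and 0.127 for Pex3. With the Y-linked covariate it was 0.0531 for Nf1. Gpr158, on the lower side, and Rxfp1, on the higher side, also passed 0.05. Their means were below background with both ASOs, so the size of the difference is not given.

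Among markers of the other cell types a heart sample can hold, 1 further gene passed 0.05, on the higher side, and none was lower. Of all clusters, 0.167% were higher and 0.063% lower at that threshold. Gsn, gelsolin, which cuts actin filaments and is abundant in fibroblasts, had 15.88, 15.93 and 16.14 with OMA1 ASO2, against 14.63 to 15.23 with OMA1 ASO1 and 15.31 to 15.98 with CTRL ASO (difference 1.03, limma adjusted p = 0.0409, 0.216 without OMA1 ASO2 replicate 3, with the call lost in 11 of the 13 fits that leave out 1 array). The 7 measured fibroblast markers had a summed level of 18.99 to 19.23 with OMA1 ASO2, 18.60 to 18.87 with OMA1 ASO1 and 18.05 to 19.10 with CTRL ASO, so the arrays of the ASOs did not overlap each other, and CTRL ASO overlapped both. Among single clusters, the OMA1 ASO2 arrays lay entirely above those of OMA1 ASO1 in 2.53% and entirely below them in 2.31%. Other lists also had summed levels without overlap. One was NADPH supply and glutathione, with 19.02 to 19.13 with OMA1 ASO2 and 19.14 to 19.32 with OMA1 ASO1. Of 9 smooth muscle and pericyte markers none was called. At an unadjusted p of 0.05, 4 were lower and 1 higher (3.69% and 4.09% of all clusters), and the median of these markers was −0.55. Their summed level was 15.60 to 15.98 with OMA1 ASO2, 15.60 to 15.77 with OMA1 ASO1 and 15.62 to 16.28 with CTRL ASO. The part of these cell types in the called genes was not tested.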

How the data were processed

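RNA of 13 hearts was read on Clariom S Mouse arrays. The authors summarized the probes with Transcriptome Analysis Console by gene-level SST-RMA (background correction, normalization between arrays, summary per transcript cluster), and the deposited values are log2 signals. No source used here states the build of the array's annotation. Of 28846 probe sets, 6640 controls were left out and 22206 clusters were kept, of which 19572 carried 1 gene symbol and 2634 none in the array's annotation. Sequences came from RefSeq (GRCm38.p6).

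A model of the 3 treatment means was fitted to the log2 signals of all 13 arrays with limma 3.58.1 in R 4.3.3 (eBayes without trend, not robust). The contrast was OMA1 ASO2 minus OMA1 ASO1, with Benjamini-Hochberg adjustment over 22206 clusters and thresholds of 0.01 and 0.05. The CTRL ASO arrays thus add to the estimate of the spread, while their mean enters no contrast. A list takes each gene by its brightest cluster, and 550 of 608 listed genes were measured. On simulated data the fit recovered the direction of all changed clusters it called. The simulated noise was independent between arrays, with no outlying array, so this checks the direction of the contrast and not the calls made here. The number of arrays limits the precision, and the study gives 1 mouse per array.

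The text names the clusters with a symbol past 0.01, the 8 largest each way between 0.01 and 0.05, list members past 0.05 and 9 preset ISR and OMA1 genes. Igf2, which passed 0.05, and the uncalled list members given as examples fall outside this rule and were picked with their values in view. The comparison, lists and rule were chosen with earlier results of these data known. Alternatives were other fits, samples, scalings, filters, weights, covariates, the replicate block and leaving out each array.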

Additional observations from a re-analysis of the deposited data

Results flagged for a closer look

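A single array stood far from the others of its treatment in 8 of 96 groups of 5 arrays examined by Dixon's gap test, which by chance marks about 1 in 20. Of these, 2 were on OMA1 ASO1 replicate 5, the array that correlated least with its group. It had 12.70 for Atf4, against 10.64 to 11.17 on the other OMA1 ASO1 arrays, and 6.70 for Bambi, against 7.41 to 7.65. OMA1 ASO1 replicate 1 had 4.76 for Pirt (others 5.50 to 5.62) and OMA1 ASO1 replicate 2 had 10.88 for Nf1 (others 10.47 to 10.56). The other 4 were on CTRL ASO arrays. CTRL ASO replicate 5 had 8.73 for Esrrg (others 9.29 to 9.47) and 7.30 for Pgap1 (others 6.85 to 6.97), CTRL ASO replicate 3 had 10.32 for Nf1 (others 10.85 to 10.94) and CTRL ASO replicate 4 had 15.98 for Gsn (others 15.31 to 15.44).

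In Kcnj12, Ptgfr and Suco every OMA1 ASO2 array was above all CTRL ASO arrays and every OMA1 ASO1 array below them. The differences between the ASOs were 3.94, 3.19 and 2.07 on the log2 scale. That the ASOs moved in opposite directions from CTRL ASO was not tested, since both share the CTRL ASO arrays.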

How the results depend on the processing

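The count of 23 clusters at an adjusted p of 0.01 by limma was 39 with a mean-variance trend and robust fitting, 9 with only the 8 OMA1 ASO arrays, 5 with each cluster's own spread and 14 with the replicate number as a block. The count of 51 at 0.05 was 28 with only the 8 OMA1 ASO arrays and 25 with each cluster's own spread. Leaving out 1 array gave 8 (without OMA1 ASO2 replicate 2) to 38 (without OMA1 ASO1 replicate 5) at 0.01 and 26 to 86 at 0.05 (without the same arrays). Quantile normalization again, centring, the filter on dim clusters, array weights and the Y-linked covariate gave 21 to 27 at 0.01 and 44 to 61 at 0.05. Only arrays with Y-linked genes below background, added after the data were seen, gave 18 and 45, and all 23 clusters stayed under 0.05 there and with the Y-linked covariate.

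The replicate block kept 13 of the 23 clusters. Same-numbered arrays of the ASOs deviated together with correlations of 0.145, 0.0125 and −0.0175. OMA1 ASO2 replicate 1 was closest to OMA1 ASO1 replicate 1, and replicates 2 and 3 were closest to replicates 3 and 4. Whether same-numbered arrays share a harvest or batch was not tested. Of 528 refitted values of the 23 clusters, 118 lost the 0.01 threshold and 0 changed sign. Among the 9 uncalled genes, 12 refitted values changed sign, all of Chchd10, Aldh18a1 and Lonp1. Leaving out 1 array gave −0.74 to 0.29 for Chchd10, −0.0746 to 0.24 for Aldh18a1 and −0.16 to 0.15 for Lonp1. On arrays with Y-linked genes below background the difference was −0.0394 for Aldh18a1 and −0.10 for Lonp1. Lonp1 was −0.00668 after centring, −0.0484 with array weights and −0.0373 with the Y-linked covariate. The cause of these changes was not tested. The 3 arrays of OMA1 ASO2, and clusters near background, limit what could be called.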

Other observations

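Lists not described so far held no cluster past an adjusted p of 0.05 by limma. The 12 measured mitochondrial chaperones and proteases, which refold or remove proteins of the matrix, had a median difference of −0.22. At an unadjusted p of 0.05, 4 were lower and 0 higher with OMA1 ASO2, against 3.69% and 4.09% of all clusters. Clpx, a subunit of a matrix protease, averaged 12.32 with OMA1 ASO2, 12.95 with OMA1 ASO1 and 12.78 with CTRL ASO (limma adjusted p = 0.381). Of 13 macrophage markers, 0 were lower and 2 higher at an unadjusted p of 0.05 (3.69% and 4.09% of all clusters, list median 0.35). Adgre1, a surface antigen of mouse macrophages, averaged 7.46 with OMA1 ASO2, 6.56 with OMA1 ASO1 and 6.10 with CTRL ASO (limma adjusted p = 0.536).

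Of 17 circadian clock genes, 1 was lower and 2 were higher at an unadjusted p of 0.05 (3.69% and 4.09% of all clusters, list median 0.18). The largest differences of the list, Arntl at −1.69 and Dbp at 1.41, leaned on OMA1 ASO1 replicate 5. Arntl had 10.57 there, against 6.05 to 8.76 on the other OMA1 ASO1 arrays, and Dbp had 9.61, against 13.23 to 14.72. Per2, a repressor of the clock, averaged 7.57 with OMA1 ASO2, 6.58 with OMA1 ASO1 and 7.24 with CTRL ASO (limma adjusted p = 0.311). The summed level of 20 immediate early genes, which respond within minutes to stimulation, was 14.22 to 15.83 with OMA1 ASO2 and 14.37 to 19.12 with OMA1 ASO1, against 14.37 to 15.36 with CTRL ASO. The 19.12 was on OMA1 ASO1 replicate 5, and the other OMA1 ASO1 arrays had 14.37 to 14.96. Without it the median difference of the list was 0.24, against −0.29 with it. Skeletal muscle markers had a median of −0.71 with 0 of 9 called and 0 past an unadjusted p of 0.05. The median rested on OMA1 ASO1 replicate 1, where Myh4, a fast myosin of skeletal muscle, was 11.95 (4.44 to 5.38 on the other OMA1 ASO1 arrays), and without that array it was −0.05. Their summed level overlapped, at 11.79 to 13.89 with OMA1 ASO2, 11.53 to 14.91 with OMA1 ASO1 and 12.75 to 14.97 with CTRL ASO.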
